A study of Mus musculus with 3 samples.

Results

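Transforming growth factor beta (TGF-β) acts on cells through secreted ligands, 2 signaling receptors, a co-receptor and intracellular Smad proteins, and the genes for 9 of these components were examined here in ST2 stromal cells. The 9 genes were Tgfb1, Tgfb2, Tgfb3, Tgfbr1, Tgfbr2, Tgfbr3, Smad2, Smad3 and Smad7. They were chosen by name, and each was found on a row of its own among the 51826 rows of the expression table. ST2 is an established mouse bone marrow stromal cell line that can be directed toward osteoblasts or adipocytes. The study asked what lies downstream of NELL2, a secreted glycoprotein, and of its binding partner fibronectin (Fn1) in these cells. All cells were transfected in culture with a lipofectamine reagent, and every group received both a plasmid and an siRNA at 30 nM. The control group (NC_Vector) combined vector with control siRNA. The NELL2 overexpression group (NC_Nell2) combined the NELL2 construct with the control siRNA. The Fn1 knockdown group (siFn1_Vector) combined vector with Fn1 siRNA. Each group was represented by 1 library of polyadenylated RNA, and without replicates no difference could be set against the spread between cultures. The groups come from a single cell line after transfection. The time between transfection and RNA isolation is not given in the sources used here, nor is the Fn1 siRNA used, so an effect of that siRNA on other transcripts cannot be told apart from an effect of losing Fn1.

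TGF-β ligands are secreted in a latent complex and are released from it in the extracellular matrix. Active ligand is bound by the type II receptor TGFBR2, which recruits and phosphorylates the type I receptor TGFBR1, and TGFBR1 in turn phosphorylates SMAD2 and SMAD3. These Smads enter the nucleus with SMAD4 and regulate transcription, and SMAD7, itself an early target, feeds back to block the type I receptor. Bone matrix is a large store of latent TGF-β, and the pathway is known to act on the recruitment and differentiation of osteoblast precursors.

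The 3 ligand genes encode related proteins, and the end of their coding sequence is shown here to make clear that similar genes can still be measured separately from short reads. Each sequence is the last 60 coding bases before the stop codon, read 5′ to 3′ on the coding strand from GENCODE M21 on GRCm38, and capitals mark the 39 bases that are identical in all 3 ligands.
Tgfb1: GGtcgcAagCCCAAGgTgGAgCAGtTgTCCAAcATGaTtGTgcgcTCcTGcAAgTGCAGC
Tgfb2: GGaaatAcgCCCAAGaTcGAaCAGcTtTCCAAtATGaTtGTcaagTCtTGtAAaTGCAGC
Tgfb3: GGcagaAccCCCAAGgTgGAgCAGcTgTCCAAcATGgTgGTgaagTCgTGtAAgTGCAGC
The Tgfb1 stretch lies at chr7:25704880-25704939 on the plus strand, that of Tgfb2 at chr1:186625451-186625510 on the minus strand and that of Tgfb3 at chr12:86057783-86057842 on the minus strand, each within 1 exon. Identical bases never run far, because the differences are scattered through the stretch. Over the last 336 coding bases, 68.8% of bases were identical between Tgfb1 and Tgfb2, 70.8% between Tgfb2 and Tgfb3 and 73.5% between Tgfb1 and Tgfb3. Among the 36 pairs that the 9 genes form, the longest exact run shared by the annotated coding transcripts of any pair was 23 bases, between Smad2 and Smad3. Reads were 150 bases long, so no read from these transcripts could match 2 of the 9 genes exactly over its full length.

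Sequence shared with other genes was small for 7 of the 9 genes. Of the 50-base windows in their annotated coding transcripts, none in Tgfb1, Smad2, Smad3 or Smad7 recurred in another gene, and the share was 0.0156% in Tgfbr1, 0.596% in Tgfb2 and 0.770% in Tgfbr2. It was 3.99% in Tgfbr3, where the windows belong to Gm43422, an annotated gene on the same strand whose own FPKM was at most 0.0112. It was 8.79% in Tgfb3, where exons of Gm37804 and Gm48008 lie on the opposite strand. Gm37804 was between 0.068 and 0.153 FPKM, and no value was found under the name Gm48008. Whether strand was used in counting is not given in the sources used here, so reads from Tgfb3 and from an antisense partner cannot be told apart. The genes lie on 7 chromosomes by the same annotation. Tgfb1 spans chr7:25687002-25705077, Tgfb2 chr1:186622792-186705989 and Tgfb3 chr12:86056745-86079041. Tgfbr1 spans chr4:47353222-47414931, Tgfbr2 chr9:116084293-116175360 and Tgfbr3 chr5:107106570-107289629. Smad3 spans chr9:63646767-63757994, and Smad2 and Smad7 both lie on chromosome 18.

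The libraries held an estimated 23000000 fragments (control), 23700000 (NELL2 overexpression) and 24200000 (Fn1 knockdown), read from the smallest steps of the deposited values, and between 12220 and 12329 genes reached 1 FPKM. FPKM is a fragment number divided by the kilobases of transcript and by the size of the library. The manipulated genes followed their labels. Nell2 was at 0.640 FPKM in the control, 326 FPKM after NELL2 overexpression and 1.06 FPKM after Fn1 knockdown. Fn1 was at 2802, 2489 and 137 FPKM in the same order, so the knockdown library held 4.88% of the control level. All 10 stromal marker genes examined reached 1 FPKM, whereas of 11 blood, endothelial and epithelial markers only Kdr did, at 1.33 FPKM in the knockdown library, and Cd3e and Epcam were among those listed at 0 in all 3 libraries. These 11 markers summed to 2.41, 3.08 and 2.33 FPKM in the 3 libraries.

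All 9 TGF-β genes were expressed in every library, at levels from 3.28 to 79.1 FPKM. In the control the order was Tgfbr2, Tgfb3, Tgfb2, Smad2, Tgfb1, Tgfbr3, Smad3, Smad7 and Tgfbr1. Tgfbr2 and Tgfb3 stood well above the others, and Tgfbr1 was lowest. Of the genes that reached 1 FPKM in the control, 92.0% lay below Tgfbr2 and 91.2% below Tgfb3, against 43.7% below Smad7 and 21.0% below Tgfbr1. The 5 genes in the middle of the order lay between 17.0 and 20.6 FPKM in the control. With 1 library a group, the spread between cultures that would be needed to order them was not measured.

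**Figure D1:**
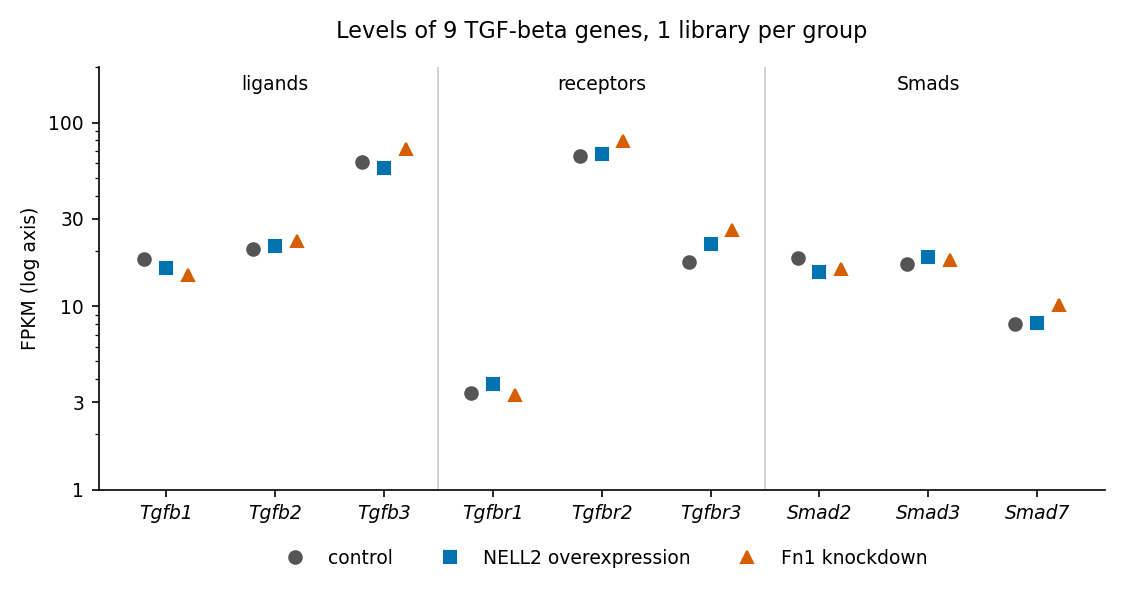
Level of each of the 9 genes in FPKM on a log axis, with 1 point for each library (control, NELL2 overexpression, Fn1 knockdown). Variation between cultures is not shown, because there was 1 library a group. Tgfbr2 and Tgfb3 lie above 56 FPKM in all 3 libraries, Tgfbr1 lies below 4 FPKM, and the points of Tgfb1, Tgfb2, Tgfbr3, Smad2 and Smad3 lie between 14.7 and 25.9 FPKM.

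Tgfb3 was the leading ligand transcript. It was at 60.9 FPKM in the control, 56.9 FPKM after NELL2 overexpression and 72.1 FPKM after Fn1 knockdown, and the knockdown library was highest. Tgfb2 was at 20.6, 21.4 and 22.7 FPKM in the same order, a narrow range. Tgfb1, the isoform best known from bone matrix and platelets, was at 18.1, 16.0 and 14.7 FPKM, highest in the control and lowest in the knockdown library. Summed over the 3 ligands, the level was 99.6 FPKM in the control, 94.4 FPKM after NELL2 overexpression and 109.6 FPKM after Fn1 knockdown. Tgfb3 made up 61.1% of the sum in the control, 60.3% after NELL2 overexpression and 65.8% after Fn1 knockdown. The share of Tgfb1 was 18.2%, 17.0% and 13.5% in the same order, and that of Tgfb2 lay between 20.7% and 22.7%. The level of Tgfb3 over that of Tgfb1 was 3.36 in the control, 3.55 after NELL2 overexpression and 4.89 after Fn1 knockdown.

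Among the receptors, Tgfbr2 was far above its signaling partner. Tgfbr2, the ligand-binding type II receptor, was at 65.7 FPKM in the control, 67.2 FPKM after NELL2 overexpression and 79.1 FPKM after Fn1 knockdown. Tgfbr1, the type I receptor kinase that phosphorylates SMAD2 and SMAD3, was at 3.36, 3.78 and 3.28 FPKM. The level of Tgfbr2 was therefore 19.5 times that of Tgfbr1 in the control, 17.8 times after NELL2 overexpression and 24.1 times after Fn1 knockdown. This comparison is per transcript length as FPKM gives it, and it moves with the length assigned to each gene. Tgfbr3, known as betaglycan, is a co-receptor that presents ligand, in particular TGF-β2, to the type II receptor. It was at 17.3 FPKM in the control, 21.8 FPKM after NELL2 overexpression and 25.9 FPKM after Fn1 knockdown, lowest in the control and highest in the knockdown library. Its share of the summed receptor level was 20.1% in the control, 23.5% after NELL2 overexpression and 23.9% after Fn1 knockdown, while the sum itself was 86.4, 92.8 and 108 FPKM.

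**Figure D2:**
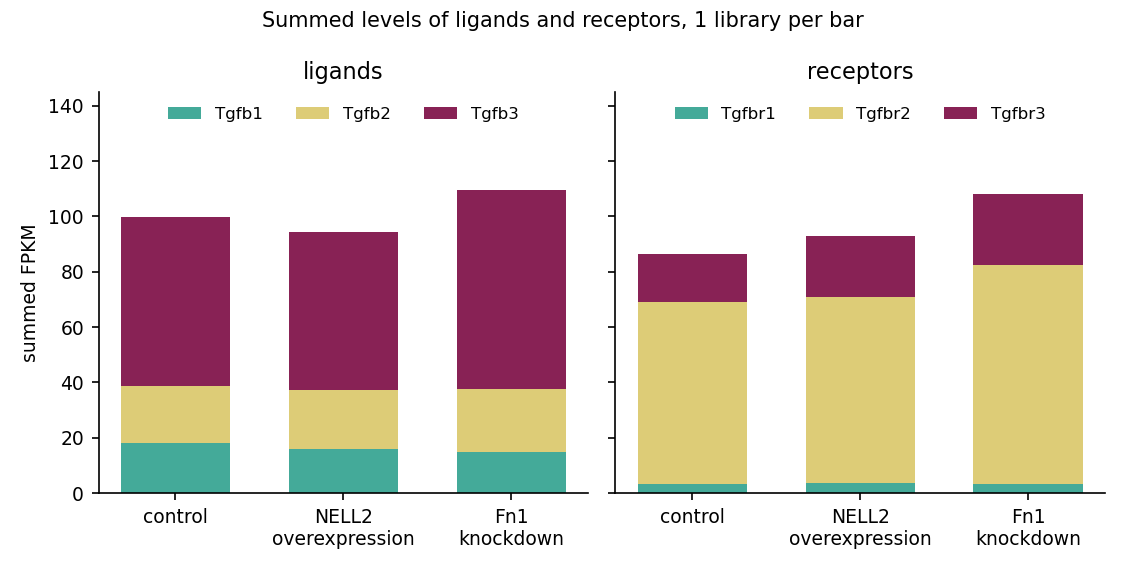
Summed FPKM of the ligands and of the receptors (vertical axis, from 0) in the 3 libraries, with each bar split by gene. No error bar is drawn because there was 1 library a group. Tgfb3 makes up 60.3% to 65.8% of the ligand bars and Tgfbr2 72.4% to 76.1% of the receptor bars.

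The receptor-activated Smads were near each other in level. Smad2 was at 18.2 FPKM in the control, 15.3 FPKM after NELL2 overexpression and 15.8 FPKM after Fn1 knockdown, highest in the control. Smad3 was at 17.0, 18.5 and 17.9 FPKM, lowest in the control. Their sum was 35.2, 33.8 and 33.7 FPKM, and the level of Smad2 over that of Smad3 was 1.08 in the control, 0.827 after NELL2 overexpression and 0.886 after Fn1 knockdown. Smad7, the inhibitory Smad, was at 8.01, 8.12 and 10.1 FPKM, with the knockdown library above the other two. Smad6, the inhibitory Smad better known from bone morphogenetic protein signaling, was at a like level, and Smad7 was 0.986, 1.05 and 1.03 times Smad6 in the 3 libraries. Summed over all 9 genes, the level was 229 FPKM in the control, 229 FPKM after NELL2 overexpression and 262 FPKM after Fn1 knockdown.

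NELL2 overexpression was compared with the control to see whether these genes differed when NELL2 was supplied. A change was called at a difference in log2(FPKM + 1) of at least 1, which is 2-fold on this scale, in genes that reached 1 FPKM in either library. None of the 9 genes was called, where 82 of 12572 genes tested, or 0.652%, were called across the table, 47 higher and 35 lower. With 9 genes, a count of 0 lies near that background and sets the members apart from no other genes. On the log2(FPKM + 1) scale the largest differences were 0.32 for Tgfbr3, −0.24 for Smad2 and −0.17 for Tgfb1. These correspond to 126% of the control FPKM for Tgfbr3 and 88.5% for Tgfb1. The other 6 lay between −0.10 for Tgfb3 and 0.13 for Tgfbr1, with Smad3 at 0.12, Tgfb2 at 0.05, Tgfbr2 at 0.03 and Smad7 at 0.02. In bulk RNA, fewer cells that express a gene and less RNA in each cell cannot be told apart.

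Beside all tested genes, the 9 genes had these values. The median log2 difference of the 9 genes was 0.03 and that of all tested genes 0.0072. Of the 9 genes 6 were higher and 3 lower, and 52.3% of all tested genes were higher. The median size of the difference, regardless of direction, was 0.12 for the 9 genes and 0.0936 for all genes. A difference as large as that of Tgfbr3 was seen for 9.86% of all tested genes, as large as that of Smad2 for 16.3% and as large as that of Tgfb1 for 27.2%. Counting error was estimated from the fragment number that each FPKM stands for. The difference was beyond 2 counting SDs for 4 of the 9 genes (Tgfb1, Tgfb3, Tgfbr3 and Smad2), where 22.5% of all tested genes of known length were. With the longest transcript as the length, Smad3 joined them, which made 5 of 9 beside 30.2% of all genes. Counting SDs narrow with level, and in the control 7 of the 9 genes lay above at least 66.3% of the genes that reached 1 FPKM. For Tgfbr3 the counting SD was 0.052, on an estimated 1349 and 1749 fragments. These SDs cover counting error only and not the variation between cultures.

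Fn1 knockdown was compared with the same control library to see whether these genes differed when Fn1 was depleted. Because the control is shared, a deviation of that library enters both comparisons. None of the 9 genes was called, where 155 of 12574 genes tested, or 1.23%, were called across the table, 86 higher and 69 lower. This count too lies near the background. Tgfbr3 again had the largest difference, 0.56 on the log2(FPKM + 1) scale, which corresponds to 149.7% of the control FPKM. Smad7 followed at 0.30, Tgfb1 at −0.28, Tgfbr2 at 0.26 and Tgfb3 at 0.24. The remaining 4 were Smad2 at −0.19, Tgfb2 at 0.14, Smad3 at 0.07 and Tgfbr1 at −0.03. Tgfb1 was at 81.4% of its control FPKM and Smad7 at 125.9%. The 3 ligands therefore did not share a direction in value, with Tgfb1 lower and Tgfb2 and Tgfb3 higher than the control, though none reached the threshold.

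The median log2 difference of the 9 genes after Fn1 knockdown was 0.14, beside −0.0028 over all tested genes. Of the 9 genes 6 were higher and 3 lower, and 49.5% of all tested genes were higher. The median size of the difference was 0.24 for the 9 genes and 0.16 for all genes. A difference as large as that of Tgfbr3 was seen for 7.16% of all tested genes, as large as that of Smad7 for 24.7%, as large as that of Tgfb1 for 27.2% and as large as that of Tgfbr2 for 29.5%. Each of the 9 genes thus lay inside the range that holds 95% of all genes, whose bound was 0.64. Beyond 2 counting SDs lay 7 of the 9 genes, the exceptions being Tgfbr1 and Smad3, where 41.1% of all tested genes of known length did, and these SDs leave out the variation between cultures. With the longest transcript as the length it was again 7 of 9, beside 48.6% of all genes. The counting SD was lowest for Tgfbr2, at 0.021 on an estimated 8737 and 11069 fragments, and highest for Tgfbr1, at 0.15 on 181 and 186 fragments.

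**Figure D3:**
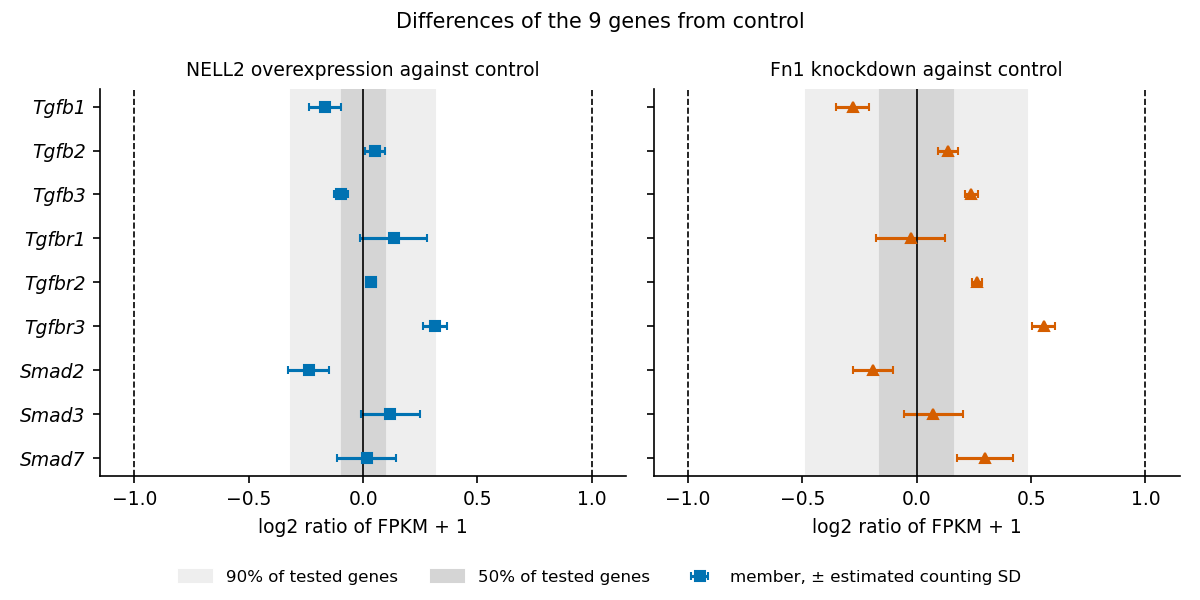
Difference in log2(FPKM + 1) from the control for each of the 9 genes after NELL2 overexpression and after Fn1 knockdown. Bars give the estimated counting SD, and the wider shaded band holds 90% of all tested genes in each comparison (0.314 and 0.484 in size). Tgfbr3 is the gene farthest to the right in both comparisons, at 0.32 and 0.56, and no gene reaches the 2-fold lines at −1 and 1.

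Genes whose pair of differences was most like that of Tgfbr3 were sought among 6523 genes that reached 10 FPKM in at least 1 library, by the distance between pairs of log2(FPKM + 1) differences. The nearest was Syngr2, which encodes a synaptic vesicle membrane protein family member, at a distance of 0.027 and with 11.1, 14.1 and 16.5 FPKM in the control, NELL2 overexpression and knockdown libraries. Rnmt, which encodes the messenger RNA cap methyltransferase, followed at a distance of 0.032 with 9.73, 12.1 and 14.7 FPKM. Mpzl1, which encodes a cell surface glycoprotein, was at a distance of 0.037 with 14.6, 18.8 and 22.2 FPKM. In all, 21 genes lay within 0.1 of Tgfbr3. The likeness rests on 3 libraries.

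Other genes of the pathway were examined as a list of 67, of which 63 reached 1 FPKM. Nrros, Itgb6, Itgb8 and Acvr1c did not, and Acvr1c, which encodes a type I receptor for activin and nodal, was listed at 0. After NELL2 overexpression 0 of the 63 were called, 31 were higher and 32 lower in value, and the median log2 difference was −0.0067. After Fn1 knockdown 1 was called, near the background of 1.23% over all tested genes, 36 were higher and 27 lower, and the median was 0.059. The called gene was Tgfbi, which encodes an extracellular matrix protein named for its induction by TGF-β. Tgfbi was at 38.1 FPKM in the control, 42.0 FPKM after NELL2 overexpression and 16.0 FPKM after Fn1 knockdown. It fell by 1.20 on the log2(FPKM + 1) scale in the knockdown library and differed by 0.14 in the overexpression library. Tgfbi lies at chr13:56609523-56639562 on the plus strand, and no exon of another annotated gene overlaps its exons.

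**Figure D4:**
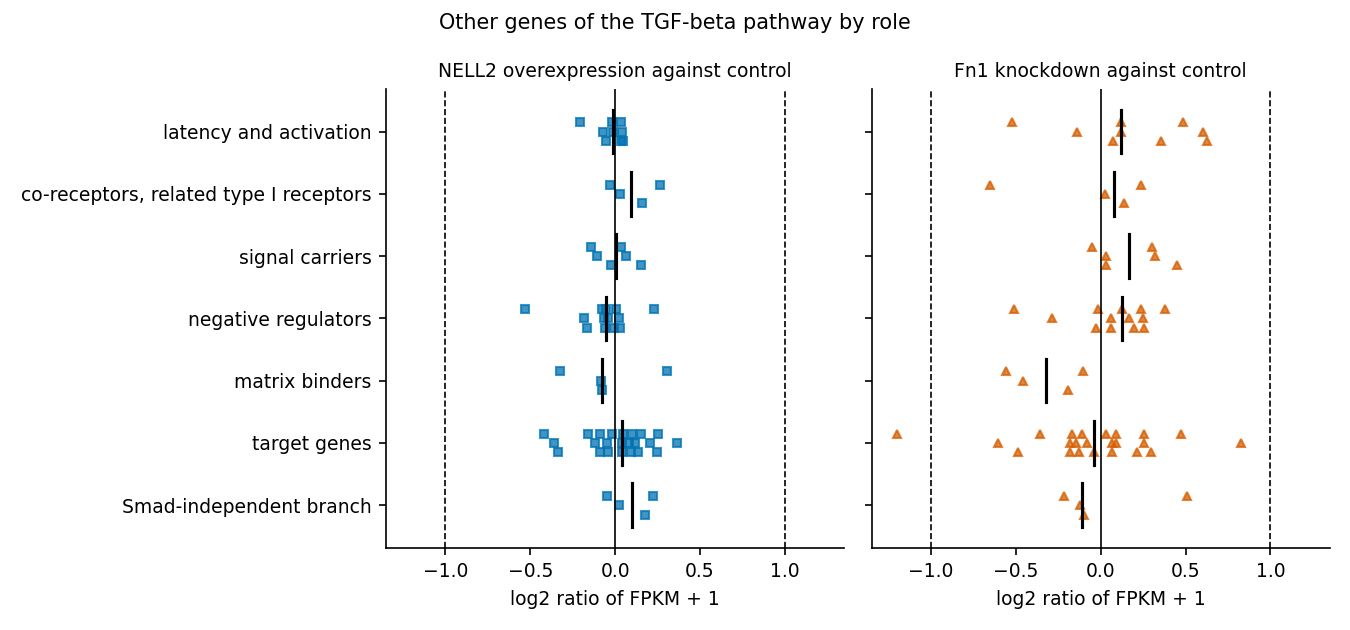
Difference in log2(FPKM + 1) from the control for the 63 pathway genes at 1 FPKM or more, grouped by role on the vertical axis, after NELL2 overexpression and after Fn1 knockdown, with 1 point a gene and a bar at each group median. Tgfbi at −1.20 after Fn1 knockdown is the only point past the 2-fold lines, and the points spread more widely in the knockdown panel.

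Genes that hold ligand latent or release it were 9 of the 63. Their median was −0.014 after NELL2 overexpression and 0.12 after Fn1 knockdown, where 7 were higher and 2 lower. Thbs1, which encodes thrombospondin 1, an activator of latent TGF-β, was the most abundant at 2177, 2237 and 3302 FPKM. The 4 co-receptors and related type I receptors had medians of 0.096 and 0.081. Eng, encoding the co-receptor endoglin, was at 55.3, 56.5 and 56.3 FPKM. The 6 signal carriers around the Smads had medians of 0.0052 and 0.17. Usp9x, which encodes a deubiquitinase that acts on SMAD4, was at 25.3, 26.0 and 31.5 FPKM, and Smad4 itself was at 22.6, 22.2 and 21.8 FPKM.

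Of the 13 negative regulators, 4 were higher and 9 lower after NELL2 overexpression, with a median of −0.051, and 9 were higher and 4 lower after Fn1 knockdown, with a median of 0.13. Fkbp1a, encoding a protein that binds the type I receptor and keeps it inactive, was at 156, 152 and 171 FPKM. The 4 matrix proteins that bind TGF-β had medians of −0.080 and −0.32, and after Fn1 knockdown all 4 were lower in value without any being called. Bgn, which encodes the proteoglycan biglycan, was at 912, 863 and 664 FPKM. Among the 23 target genes, 13 were higher and 10 lower after NELL2 overexpression, and 11 were higher and 12 lower after Fn1 knockdown. Col1a1, which encodes a chain of type I collagen, was at 1494, 1601 and 1352 FPKM. The 4 genes of the Smad-independent branch had medians of 0.10 and −0.11, with Tab2, which encodes an adaptor of the kinase TAK1, at 25.4, 25.9 and 23.3 FPKM.

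Several further pathway genes are given for the size of their values and were chosen after these were seen. At a 1.5-fold difference on the log2(FPKM + 1) scale, 0 of the 63 genes passed after NELL2 overexpression, where 2.59% of all tested genes did (325 of 12572), and 6 passed after Fn1 knockdown, where 6.24% of all tested genes did (784 of 12574). Neither count sets the list apart from other genes. None of the 9 ligand, receptor and Smad genes passed in either comparison. The 6 comprised 3 that were higher and 3 that were lower, and Tgfbi, Acvrl1, Snai2, Itgav and Thbs1 were among them. Itgav, which encodes the integrin subunit αv that takes part in releasing latent TGF-β, was at 21.3, 21.9 and 33.5 FPKM. Acvrl1, the type I receptor ALK1, was at 11.1, 13.5 and 6.68 FPKM, and Snai2, a transcription factor of the Snail family, was at 26.1, 24.4 and 16.8 FPKM. Smurf1, a ubiquitin ligase that acts on receptor complexes and Smads, had the largest difference in size after NELL2 overexpression, −0.53, from 25.9 to 17.6 FPKM, and was at 17.9 FPKM after Fn1 knockdown.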

How the data were processed

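Polyadenylated RNA was sequenced as paired ends of 150 bases. Reads were mapped with HISAT2, and the submitters' processing notes also name DESeq and GRCm38. The values are FPKM per gene as deposited by the authors in 1 table. The program that computed FPKM, its version and annotation, and the use of strand are not given in the sources used here. With no counts and 1 library a group, the comparisons carry no test and no p-value.

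Differences were taken as log2(FPKM + 1) minus the control, a scale that understates the change of low genes. A gene was called at a 2-fold difference on this scale and 1 FPKM or more in either library. Rows with a repeated name numbered 187. Gene positions, lengths and sequences came from GENCODE M21 (GRCm38). Fragment totals came from the step between low values of FPKM times length, taken over genes that have 1 transcript and at least 600 bases. Of these low values, 29.9% to 30.9% lay within 0.05 of a whole number, which was too few to recover whole reads, and the fragment numbers are estimates. The length of a gene was the median over its coding transcripts. The call rule and the depth estimate were tested on simulated data. The simulation drew whole counts from the same gene lengths and held no variation between cultures. Its changes lay well past the 2-fold threshold, so smaller differences were not tried. Python 3.11.15, pandas 2.3.3, numpy 2.4.6 and matplotlib 3.10.9 were used.

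The members, the pathway list and the marker lists were chosen with earlier results of these data known. The genes named were the 9 members, the pathway genes called, the pathway gene with the highest control FPKM in each role group, the 3 genes nearest to the member with the largest difference, and Nell2 and Fn1. Genes named outside this rule are said to be so, apart from Smad4 and Smad6, the 4 pathway genes below 1 FPKM, the markers and the overlapping genes. The alternatives were a pseudocount of 0.1, of 5 or none, a filter at 5 FPKM or none, median-of-ratios scaling, a 1.5-fold threshold, and the longest transcript as the length.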

Additional observations from a re-analysis of the deposited data

How the results depend on the processing

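For the 9 genes, 0 calls were made in either comparison under each alternative tried, and all 72 alternative log2 differences (pseudocounts of 0.1 and 5, no pseudocount, median-of-ratios scaling) kept their direction and stayed under the threshold. Leaving out the pseudocount, and the counts of members beyond 2 counting SDs with either length, were chosen after seeing the data. The number of all genes called after NELL2 overexpression, 82 as reported, was 178 at a pseudocount of 0.1, 26 at a pseudocount of 5, 47 at 5 FPKM or more and 325 at a 1.5-fold threshold. After Fn1 knockdown, 155 as reported became 358 at a pseudocount of 0.1 (179 higher, 179 lower), 50 at a pseudocount of 5 and 784 at the 1.5-fold threshold (367 higher, 417 lower). The pathway list had 6 calls after Fn1 knockdown at the 1.5-fold threshold in place of 1. Its median after NELL2 overexpression, −0.0067, turned to 0.0027 with no filter on low values, which adds weakly expressed genes to the list. The lowest estimated fragment number of a member, 181 for Tgfbr1 in the control, became 445 with the longest transcript. Larger moves in the control were those of Smad3, from 236 to 1985, and Smad2, from 547 to 3392. The counting SDs therefore depend on the length used. No paired analysis was possible because there was 1 library in each group, and for the same reason no replicate could be left out. The depth limits counting error only, and variation between cultures was not measured.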

Other observations

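A few genes named for TGF-β or Smads belong neither to the 9 genes nor to the pathway list, and their values are given without further comparison. They were chosen by name after the other values were seen. Smad1 and Smad5, which encode the Smads activated by bone morphogenetic proteins, were at 11.6 and 10.4 FPKM in the control, 9.78 and 9.85 FPKM after NELL2 overexpression and 11.0 and 8.99 FPKM after Fn1 knockdown. Smad9, of the same class, was lower, at 0.966, 1.03 and 1.48 FPKM. Tgfb1i1, which encodes the focal adhesion protein HIC-5, was at 66.5, 55.4 and 61.6 FPKM. Tgfbrap1, which encodes a protein that associates with the type I receptor, was at 7.99, 8.37 and 10.2 FPKM. Tgfbr3l was below 1 FPKM in all 3 libraries. None of the other 5 genes was called in either comparison.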
